A study of Mus musculus with 5 samples.

Results

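Integrins and the adhesion proteins that bind their tails were followed in newborn mouse atria that lack the cardiac transcription factor Nkx2-5 in muscle. The members are the 28 protein-coding genes whose symbol begins with Itga or Itgb, leaving out the Itgb1bp and Itgb3bp names, plus 11 genes of the adhesion core (Tln1, Tln2, Vcl, Ptk2, Pxn, Ilk, Parva, Parvb, Lims1, Lims2 and Zyx). They are 39 of the 40624 genes in the counted table, matched by gene symbol; the set was proposed with earlier results of these data known. Of these, 38 had enough counts to test. Itgb2l, a relative of the leukocyte beta subunit, was left out of the test with 1 and 3 reads in mutants 5 and 7, and 0, 1 and 2 reads in controls 2, 4 and 6.

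Mutant atria carried SLN-Cre with both Nkx2-5 alleles floxed (Nkx2-5-flox/flox, libraries 5 and 7). Control atria carried SLN-Cre with 1 floxed and 1 intact allele (Nkx2-5-flox/+, libraries 2, 4 and 6). All were of strain C57BL/6 at postnatal day 1. Cre was thus present in both groups, and the controls kept 1 functional copy of Nkx2-5. The Sln promoter that drives it is active in atrial myocytes, whereas the RNA came from whole atrial tissue, with its endothelial, mesenchymal, epicardial and blood cells. Separate animals are not stated in the labels, and every p below therefore reflects only how these 5 libraries vary.

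Mutants 5 and 7 held 78841494 and 69648013 gene counts, and controls 2, 4 and 6 held 58501214, 58884453 and 60899334. Nkx2-5 stood at 5.79 and 5.21 CPM (gene counts scaled to library size) in mutants 5 and 7, against 76.8, 72.1 and 71.3 CPM in controls 2, 4 and 6, and fell by 3.74 ± 0.09 (SE) on the log2 scale (adjusted p = 7.03e-07 by edgeR's quasi-likelihood test). Each group held 1 male library, mutant 5 and control 4, read from Xist and Ddx3y. The 7 cardiac myocyte markers, of which Myl4 and Myl7 are atrial, had summed levels of 46570 and 42520 CPM in mutants and 43000, 39940 and 41930 CPM in controls. The ventricular markers Myl2, Myl3 and Irx4 summed to 41.0 and 23.8 CPM in mutants and to 146.5, 83.8 and 241.7 CPM in controls.

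Integrins are paired receptors, each made of an alpha and a beta subunit, that hold cells to the extracellular matrix or to other cells. The pair decides which ligand is bound: laminin, collagen, matrix proteins with the RGD sequence, or adhesion molecules on other cells. Talin binds the beta tail and switches the receptor on. Vinculin, paxillin, focal adhesion kinase, the complex of ILK, PINCH and parvin, and zyxin then link it to actin. In heart muscle these proteins sit in costameres, which couple the sarcomere to the matrix.

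In mutant atria 4 of the 38 tested members rose and 1 fell. Ptk2 (focal adhesion kinase), Tln1 (talin), the laminin receptor subunit Itga6 and the RGD receptor subunit Itgav were higher, and the beta subunit Itgb3 was lower. The other 33 did not pass. The 5 called members are 13.2% of those tested, beside 6.58% of all 17835 tested genes, and 3.02% of all genes rose and 3.57% fell. The authors' deposited table puts the same 5 members under an adjusted p of 0.05, 4 higher and 1 lower, beside 1177 of its 25941 genes with an adjusted p. That table rests on the same 5 libraries. Rises were small, between 1.26-fold and 1.52-fold.

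Beyond the calls, 29 members had a positive log2 fold change and 9 a negative one, while 51.3% of all tested genes were positive. Their median was 0.20 on the log2 scale, beside 0.01 for all tested genes. An unadjusted p under 0.05 was reached by 18 members, 13 higher and 5 lower, beside 20.8% of all tested genes. In 17 members both mutants lay above all controls, beside 18.6% of all tested genes, and in 5 both lay below, beside 19.2%. Together these are 57.9% of the members, beside 37.9% of all tested genes. All 11 genes of the adhesion core were positive, and in 7 of them the mutants lay above every control. Because the samples are whole tissue, more cells of a type and more RNA per cell cannot be told apart in any of these values.

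**Figure D1:**
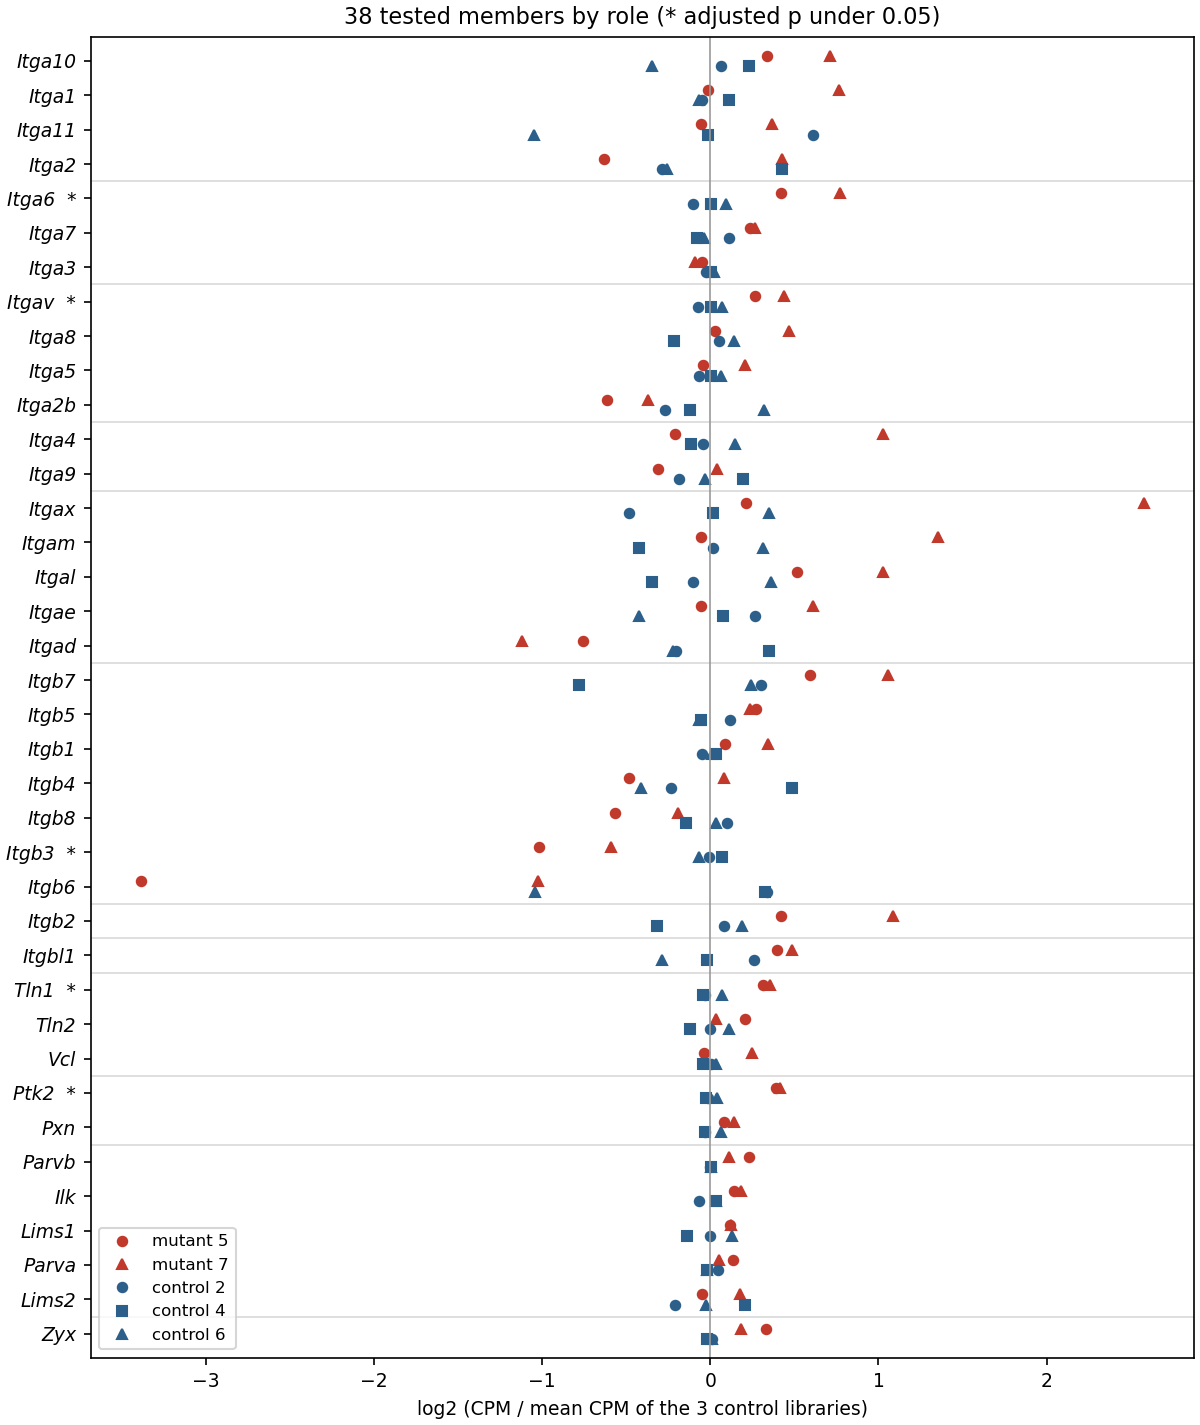
Level of each of the 38 tested members in each library, as log2 of its CPM over the mean CPM of the 3 control libraries; mutants are drawn above controls on each line, lines separate roles, and an asterisk marks adjusted p under 0.05. Mutants 5 and 7 lie to the right of all controls in 17 members and to the left in 5, and mutant 7 stands far to the right for Itgax, Itgam and Itga4.

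The plot of all members by library groups them by role. The adhesion core at its foot is tight, with mutant and control points a fraction of a log2 unit apart, whereas the leukocyte integrins and other weakly expressed subunits scatter more widely.

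Itga6 encodes the alpha subunit of laminin receptors with beta1 or beta4. It lies on chromosome 2 (71625196 to 71694072, mm9, plus strand, as listed by the authors). Its level was 282 and 358 CPM in mutants 5 and 7, against 196, 210 and 224 CPM in controls 2, 4 and 6. Both mutants were above every control, with mutant 7 the highest. Itga6 rose 1.52-fold, by 0.61 ± 0.11 (SE) on the log2 scale (adjusted p = 0.0167 by edgeR's test, Benjamini-Hochberg over all tested genes). Its adjusted p was 0.0618 without control 2 and 0.0733 without control 4.

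Of the other laminin-binding subunits, Itga7, whose product pairs with beta1 in muscle, had 40.1 and 40.9 CPM in mutants and 36.7, 32.1 and 33.1 CPM in controls. The groups did not overlap, but it did not pass (log2 fold change 0.25 ± 0.08 SE, adjusted p = 0.119 by edgeR's test). Itga3, the remaining one, had a log2 fold change of -0.07 ± 0.07 (SE), with 35.5 and 34.4 CPM in mutants against 36.0, 36.8 and 37.2 CPM in controls.

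Itgav encodes the alpha subunit of the vitronectin receptors, which pairs with beta1, beta3, beta5, beta6 or beta8 and binds RGD ligands such as vitronectin and latent TGF-beta. The authors' table places it on chromosome 2 (83564892 to 83643492, mm9, plus strand). It had 76.1 and 85.8 CPM in mutants 5 and 7 and 60.2, 63.6 and 66.4 CPM in controls 2, 4 and 6. The groups were apart. Itgav rose by 0.35 ± 0.08 (SE) on the log2 scale (adjusted p = 0.0288 by edgeR's test). The adjusted p was 0.111 without mutant 7, 0.127 without control 2, 0.116 without control 4 and 0.0547 without control 6.

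The other RGD-binding subunits did not pass. Itga5, the fibronectin receptor subunit, had 151 and 179 CPM in mutants and 148, 156 and 162 CPM in controls, with mutant 5 inside the control range. Itga2b, the platelet subunit that pairs with beta3, had 4.14 and 4.89 CPM in mutants and 5.26, 5.83 and 7.91 CPM in controls. Both mutants lay below every control, but the log2 fold change of -0.49 ± 0.19 (SE) did not pass (adjusted p = 0.193 by edgeR's test). Itga8 had a log2 fold change of 0.26 ± 0.15 (SE).

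Itgb3 encodes the beta3 subunit, shared by the vitronectin receptor alphav-beta3 and by the fibrinogen receptor of platelets. It lies on chromosome 11 (104469403 to 104528459, mm9, plus strand). It had 7.18 and 9.62 CPM in mutants 5 and 7, from 560 and 657 reads, against 14.4, 15.3 and 13.9 CPM in controls 2, 4 and 6, from 852, 908 and 853 reads. Both mutants lay well below all controls, and mutant 5 was the lowest. Itgb3 fell by 0.79 ± 0.14 (SE), in log2 units (adjusted p = 0.0131 by edgeR's test), to 0.578 of the control level. Without control 4 the adjusted p was 0.0588.

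Itgb3 thus fell while Itgav, its usual partner, rose. Of 5 tested platelet and megakaryocyte markers, edgeR's test, DESeq2 and limma-voom called 0. An unadjusted p under 0.05 was reached by 2, 1 higher and 1 lower, beside 20.8% of all tested genes. Log2 fold changes of the 5 ran from -1.37 ± 0.60 (SE) for the chemokine gene Ppbp to 0.58 ± 0.20 (SE) for Gp1bb, which belongs to the von Willebrand factor receptor. Their summed level was 21.0 and 13.3 CPM in mutants and 24.8, 23.5 and 19.5 CPM in controls, and Pf4, platelet factor 4, made up most of it, with 16.0 and 8.23 CPM in mutants and 20.3, 18.7 and 14.8 CPM in controls. The ranges of the sum overlapped, with mutant 7 the lowest. Itga2b, the platelet partner of beta3, had 4.14 and 4.89 CPM in mutants 5 and 7. It had 5.26, 5.83 and 7.91 CPM in controls and did not pass. The part of platelets and megakaryocytes in the fall of Itgb3 was not tested.

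Among the other beta subunits, Itgb1, the common partner of most matrix receptors, had 795 and 950 CPM in mutants and 725, 769 and 756 CPM in controls. Both mutants were above all controls, with mutant 5 close to them. A log2 fold change of 0.22 ± 0.09 (SE) missed the threshold (adjusted p = 0.211 by edgeR's test). It ran from 0.08 to 0.34 when 1 library was left out. Itgb5, another partner of alphav, had 168 and 164 CPM in mutants and 151, 134 and 133 CPM in controls (log2 fold change 0.25 ± 0.07 SE, adjusted p = 0.0804 by edgeR's test).

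Itgb8, an alphav partner that binds latent TGF-beta, had 11.3 and 14.7 CPM in mutants and 18.0, 15.2 and 17.1 CPM in controls. The groups were narrowly apart, and the log2 fold change of -0.37 ± 0.13 (SE) did not pass (adjusted p = 0.148 by edgeR's test). Itgb6, the epithelial alphav partner, was almost silent, with 2 and 9 reads in mutants and 20, 20 and 8 reads in controls. Its log2 fold change of -1.78 ± 0.75 (SE) did not pass (adjusted p = 0.219 by edgeR's test). The partner of alpha6 in hemidesmosomes, Itgb4, had 5.57 and 8.26 CPM in mutants and 6.63, 10.9 and 5.87 CPM in controls, which overlapped.

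**Figure D2:**
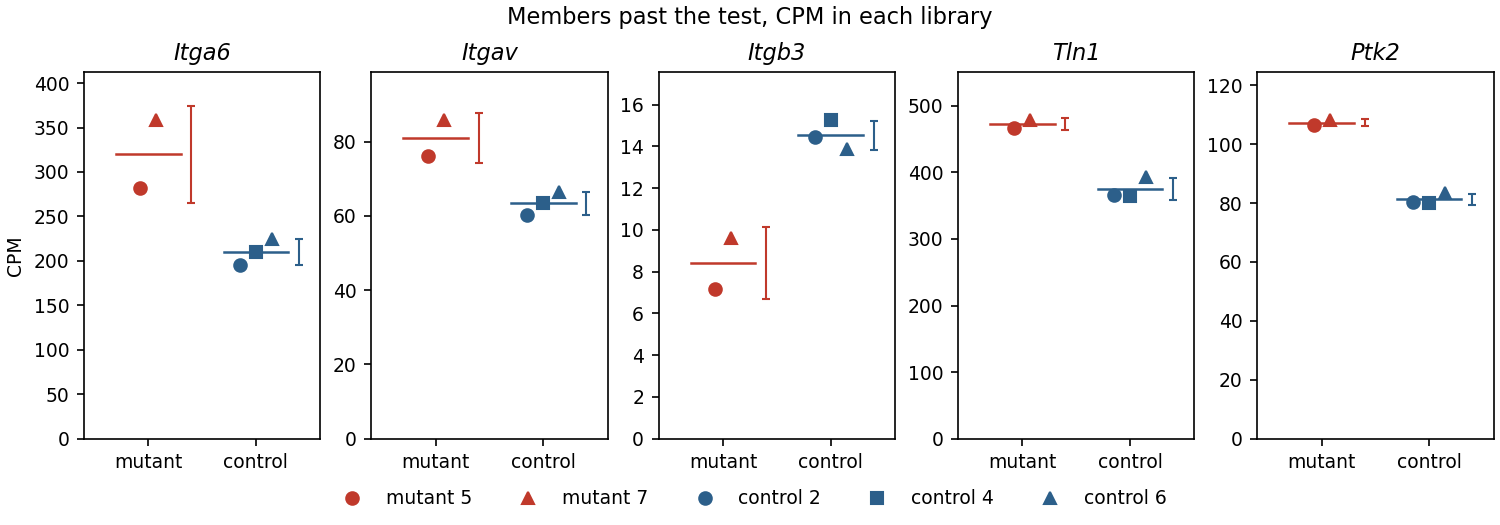
CPM of the 5 members that passed the test, in each library; horizontal lines are group means and the bars beside them are ± 1 SD (n = 2 mutants, n = 3 controls), with every vertical axis starting at 0. Mutants stand left of controls in each panel, above them for Itga6, Itgav, Tln1 and Ptk2 and below them for Itgb3.

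Per length, Itgb1 was the most abundant member, at 140 and 167 CPM per kilobase of listed length in mutants and 128, 135 and 133 in controls. Zyx followed, with a mean level of 50.3 CPM per kilobase in mutants and 42.0 in controls, then Parvb (45.1 and 40.0). Itga5 (37.7 and 35.5), Tln1 (41.6 and 33.0) and Itgb5 (39.0 and 32.8) came next, and in controls Itga5 overlapped with Tln1, and Tln1 with Itgb5. The order rests on the lengths the authors listed, which ran from 0.43 to 2.5 times the exonic length of the same genes in GENCODE vM21.

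Among alpha subunits, Itga5 and Itga6 had the highest levels per kilobase. Itga6 made up 23.9% and 24.6% of the summed alpha level per kilobase in mutants 5 and 7, against 18.4%, 18.9% and 19.6% in controls 2, 4 and 6. Itga5 made up 37.0% and 35.6% in mutants, against 40.3%, 40.3% and 40.9% in controls. Both shares were apart between the groups. Shares add up to a fixed total, and the level of Itga5 itself was not lower in mutants (log2 fold change 0.09 ± 0.08 SE, which did not pass).

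Itgb1 made up 76.5% and 79.3% of the summed beta level per kilobase in mutants and 75.8%, 78.5% and 78.5% in controls. Itgb3 was a small part of it, at 0.658% and 0.766% in mutants and 1.44%, 1.49% and 1.37% in controls. Only the share of Itgb3 was apart between the groups in this pair of genes.

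**Figure D3:**
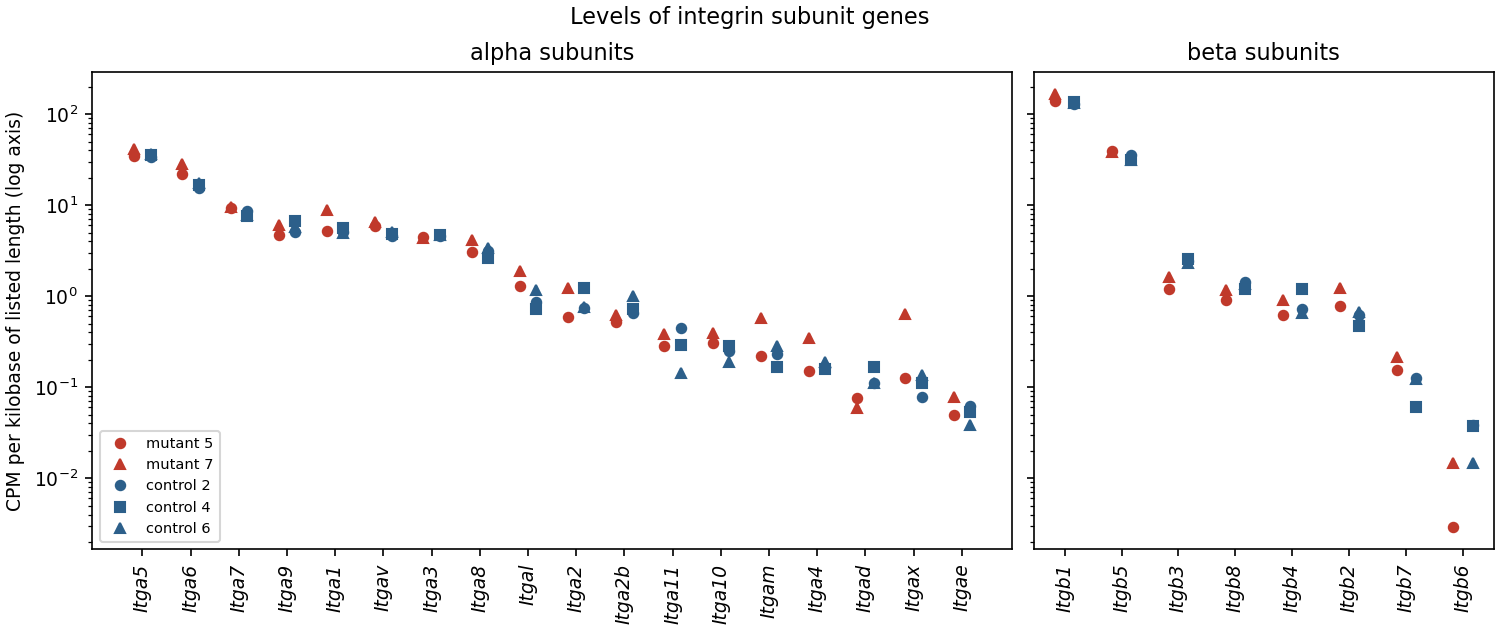
Level of each tested alpha and beta subunit gene as CPM per kilobase of listed length, on a log axis, with mutants left of controls for each gene and genes ordered by their mean in controls. Itga5 and Itga6 lead the alpha subunits and Itgb1 the beta subunits, while Itgb6 lies at the bottom with under 0.04 in every library.

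The levels plot shows the alpha subunit genes in falling order. At the low end sit leukocyte subunits such as Itgax and Itgam, for which mutant 7 stands far above mutant 5.

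None of the 4 collagen receptor subunits passed edgeR's test, DESeq2 or limma-voom. An unadjusted p under 0.05 was reached by 0, beside 20.8% of all tested genes. Itga1, their most abundant member, had 41.7 and 71.3 CPM in mutants and 40.7, 45.4 and 40.1 CPM in controls. Mutant 7 was high and mutant 5 lay among the controls. The log2 fold change of 0.43 ± 0.23 (SE) was thus 0.76 without mutant 5 and -0.02 without mutant 7. Itga2 had 2.47 and 5.14 CPM in mutants and 3.14, 5.16 and 3.20 CPM in controls. Itga10 and Itga11 had log2 fold changes of 0.53 ± 0.24 and 0.17 ± 0.44 (SE), and the count of Itga10 is uncertain because 33.5% of its exonic bases in GENCODE vM21 also belong to Gm42957 on the same strand.

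Itga4, which binds the vascular adhesion molecule VCAM-1 and fibronectin, had 3.29 and 7.75 CPM in mutants and 3.70, 3.51 and 4.21 CPM in controls. Here too mutant 7 stood alone. Itga9 had 39.9 and 50.8 CPM in mutants and 43.5, 56.5 and 48.4 CPM in controls, with mutant 7 inside the control range and mutant 5 below it.

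Of 7 leukocyte integrins, counting Itgb7, edgeR's test and limma-voom called 0, beside 6.58% of all tested genes by edgeR's test. DESeq2 called 3, beside 1947 of all 25941 genes with a count. An unadjusted p under 0.05 was reached by 4, 3 higher and 1 lower, beside 20.8% of all tested genes. Itgb2, the common beta chain of leukocytes, had 3.56 and 5.65 CPM in mutants and 2.82, 2.13 and 3.02 CPM in controls. Its log2 fold change of 0.79 ± 0.24 (SE) did not pass (adjusted p = 0.0919 by edgeR's test). It ran from 0.42 to 1.09 when 1 library was left out. Itgal, the alpha chain of LFA-1, had 9.66 and 13.8 CPM in mutants and 6.31, 5.31 and 8.68 CPM in controls (log2 fold change 0.79 ± 0.24 SE, adjusted p = 0.111, and 0.0422 without control 6, by edgeR's test). In both genes the mutants lay above all controls.

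Itgax, a dendritic cell and macrophage subunit, had 0.577 and 2.97 CPM in mutants and 0.356, 0.504 and 0.634 CPM in controls, and mutant 7 alone was high. Itgam, the Mac-1 alpha chain, had 2.00 and 5.30 CPM in mutants and 2.10, 1.55 and 2.58 CPM in controls. The same library was high, and 68.7% of the exonic bases of Itgam in GENCODE vM21 also belong to Gm49368 on the same strand, so its count is uncertain. Itgad, a macrophage subunit, went the other way, with 0.359 and 0.278 CPM in mutants and 0.526, 0.773 and 0.520 CPM in controls (adjusted p = 0.206 by edgeR's test). Itgae and Itgb7, a lymphocyte pair, had log2 fold changes of 0.31 ± 0.45 and 0.84 ± 0.43 (SE).

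Of the 8 leukocyte markers, all had positive log2 fold changes, beside 51.3% of all tested genes. They ran from 0.05 for Csf1r, the macrophage growth factor receptor, to 0.68 for the leukocyte antigen Ptprc. The 3 that rose are 37.5% of the list, beside 3.02% of all tested genes. Laptm5, a lysosomal membrane protein of blood cells, had the lowest p, with 21.4 and 19.8 CPM in mutants and 14.5, 12.0 and 13.2 CPM in controls (adjusted p = 0.00944 by edgeR's test). The markers summed to 187 and 189 CPM in mutants 5 and 7 and to 145, 142 and 163 CPM in controls. The mutants were alike in this sum, to which Csf1r and Lyz2 gave most, and Csf1r had 68.3 and 56.2 CPM in mutants 5 and 7, against 60.5, 52.9 and 66.6 CPM in controls. Other markers were higher in mutant 7: Ptprc had 4.60 and 7.57 CPM in mutants 5 and 7, against 3.41, 3.21 and 4.78 CPM in controls, and Lyz2, Cd68 and Cd14 were also higher in mutant 7 than in mutant 5. Of the 8 markers, 1, Ptprc, was at least 1.5-fold higher in mutant 7 than in mutant 5. Of the 3 that rose, Coro1a had 18.82 and 19.06 CPM in mutants 5 and 7, Emr1 had 16.75 and 16.55, and Laptm5 was lower in mutant 7. Among leukocyte integrins, mutant 7 was at least 1.5-fold above mutant 5 in Itgb2, Itgam, Itgax and Itgae, the last from 18 and 25 reads. All 5 erythroid markers were above every control in both mutants, beside 18.6% of all tested genes. Of the 5, Hba-a1 alone rose, beside 3.02% of all tested genes. All of them except Alas2 are globin genes, so they are not independent of one another. The part of leukocytes and blood in these levels was not tested.

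Over all members, mutant 7 exceeded mutant 5 by 1.5-fold or more in 8 (21.1%), beside 9.34% of all tested genes. They were Itga1, Itga2, Itga4, Itgae, Itgam, Itgax, Itgb2 and Itgb6, none of them in the adhesion core. Itgae had 18 and 25 reads and Itgb6 had 2 and 9 in mutants 5 and 7. Mutant 5 was read as male and mutant 7 as female, so sex cannot be told apart from other differences between these libraries. Among the 8 endothelial markers 1, Kdr, was at least 1.5-fold higher in mutant 7 than in mutant 5 (12.5%), beside 9.34% of all tested genes. Kdr had 122 and 200 CPM in mutants 5 and 7 and 116, 121 and 117 CPM in controls. The ratio of mutant 7 to mutant 5 was 1.43 for Cdh5 and ran from 1.03 (Emcn) to 1.19 (Tek) in the rest. The 8 endothelial markers summed to 1592 and 1916 CPM in mutants and 1409, 1462 and 1488 CPM in controls. Tie1 alone rose (log2 fold change 0.33 ± 0.08 SE, adjusted p = 0.0397 by edgeR's test), which is 12.5% of the 8, beside 3.02% of all tested genes. None of the 8 was at 0, and their log2 fold changes ran from 0.01 for Tek to 0.52 for Cdh5. Itga6, Itgav, Itga5 and Itgb1 are also made by endothelial cells, and the part of endothelial RNA in their levels was not tested.

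In the adhesion core, Ptk2 encodes focal adhesion kinase, the tyrosine kinase recruited to clustered integrins. It lies on chromosome 15 (73036478 to 73173757, mm9, minus strand). It had 106 and 108 CPM in mutants 5 and 7 and 80.5, 79.9 and 83.5 CPM in controls 2, 4 and 6. Both groups were tight and clearly apart. Ptk2 rose 1.32-fold, by 0.40 ± 0.06 (SE) on the log2 scale (adjusted p = 0.00589 by edgeR's test). It was the only member called in every fit that left out 1 library, with adjusted p up to 0.0439, and the only one under an adjusted p of 0.01. Pxn, the scaffold paxillin, had 116 and 121 CPM in mutants and 107, 107 and 114 CPM in controls (log2 fold change 0.11 ± 0.06 SE, adjusted p = 0.351 by edgeR's test).

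Tln1, the widely expressed talin, lies on chromosome 4 (43544832 to 43569622, mm9, minus strand). It had 466 and 479 CPM in mutants and 367, 364 and 394 CPM in controls. The groups were apart, and Tln1 rose by 0.33 ± 0.07 (SE) on the log2 scale (adjusted p = 0.0278 by edgeR's test). The adjusted p was 0.0555 without mutant 7, 0.141 without control 2 and 0.121 without control 4. Tln2, the talin enriched in striated muscle, had 159 and 142 CPM in mutants and 138, 127 and 150 CPM in controls, which overlapped. Vcl, vinculin, had 122 and 149 CPM in mutants and 126, 122 and 128 CPM in controls, with mutant 5 at the control level (adjusted p = 0.527 by edgeR's test). Its log2 fold change ran from -0.04 to 0.25 when 1 library was left out. Exonic bases of Vcl are shared with Ap3m1 on the opposite strand (25.5%), which limits its value if reads were counted without strand.

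The ILK, PINCH and parvin complex, which links beta1 to actin, had 0 of 5 genes called by edgeR's test, DESeq2 or limma-voom. In it 1 gene, Parvb, had an unadjusted p under 0.05, beside 20.8% of all tested genes. Parvb had 211 and 195 CPM in mutants and 179, 180 and 180 CPM in controls (log2 fold change 0.17 ± 0.06 SE, adjusted p = 0.168 by edgeR's test), and the groups were apart. Parva had 208 and 196 CPM in mutants and 196, 187 and 187 CPM in controls.

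Lims1, a PINCH gene, had 172 and 173 CPM in mutants and 158, 144 and 174 CPM in controls. Lims2, the other one, had 42.7 and 49.9 CPM in mutants and 38.2, 51.0 and 43.4 CPM in controls. Neither was apart between the groups. Ilk itself had 12.4 and 12.8 CPM in mutants and 10.7, 11.5 and 11.5 CPM in controls, but 76.7% of its exonic bases in GENCODE vM21 are shared with Taf10 on the opposite strand, so its level is uncertain. Zyx, the stretch-responsive LIM protein zyxin, had 266 and 240 CPM in mutants and 213, 208 and 213 CPM in controls (log2 fold change 0.26 ± 0.07 SE, adjusted p = 0.0644 by edgeR's test). The Zyx groups were apart. Itgbl1, an integrin-like secreted protein, had 5.05 and 5.36 CPM in mutants and 4.58, 3.78 and 3.14 CPM in controls (adjusted p = 0.202 by edgeR's test).

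Promoters of the called members bear on the design because Nkx2-5 is a DNA-binding protein whose sites contain the core AAGTG. RefSeq promoter windows (GRCm38.p6) were at hand for 26 of the 39 members, in 31 windows, and were searched for AAGTG on both strands in the 250 bases before the start. Of these windows 14 held it, beside 40.7% of the 32851 windows of all genes. Windows of members without a call, such as Itgb5, Itgb8 and Lims1, were among the 14. Among called members, Itgav and Tln1 had a window, and both are shown because both rose and both hold AAGTG, in capitals, on the strand of the gene. Itgav has 2 copies at chr2:83724147-83724396 (plus strand) and Tln1 has 1 at chr4:43562584-43562833 (minus strand). No window was used for Itga6, Itgb3 or Ptk2. A match describes letters and does not show binding.
Itgav: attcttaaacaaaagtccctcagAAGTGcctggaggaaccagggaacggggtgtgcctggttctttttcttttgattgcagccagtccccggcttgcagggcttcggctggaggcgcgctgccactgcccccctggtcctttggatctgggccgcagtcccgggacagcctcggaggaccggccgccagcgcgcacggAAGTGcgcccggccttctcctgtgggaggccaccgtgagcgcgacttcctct
Tln1: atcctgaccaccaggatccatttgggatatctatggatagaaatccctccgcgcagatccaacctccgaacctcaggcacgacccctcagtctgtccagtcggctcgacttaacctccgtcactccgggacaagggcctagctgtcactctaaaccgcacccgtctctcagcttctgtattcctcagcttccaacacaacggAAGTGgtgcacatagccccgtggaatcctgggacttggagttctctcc

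Other genes of the adhesome, the proteins found in integrin adhesions, were followed in a list of 52 names, of which 49 were tested. Of these, 4 rose and 3 fell, which is 14.3%, beside 6.58% of all tested genes, with a median log2 fold change of 0.09, beside 0.01 for all tested genes. The names include Hic5, another name of Tgfb1i1. Sorbs2, an adaptor of adhesions and Z-discs in cardiac muscle, had 453 and 513 CPM in mutants and 314, 309 and 325 CPM in controls. It rose by 0.61 ± 0.08 (SE) on the log2 scale (adjusted p = 0.00323 by edgeR's test) and kept its call in every fit without 1 library. Nedd9, a docking protein bound by focal adhesion kinase, rose by 0.39 ± 0.07 (SE), the Z-disc and stress fibre protein Pdlim7 by 0.43 ± 0.09 and the muscle filamin Flnc by 0.35 ± 0.08 (adjusted p = 0.0150, 0.0260 and 0.0317 by edgeR's test).

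In the other direction, Tns3, a tensin that binds beta tails, had 103 and 100 CPM in mutants and 138, 132 and 131 CPM in controls. Tns3 fell by 0.40 ± 0.06 (SE), in log2 units (adjusted p = 0.00591 by edgeR's test), in every fit without 1 library. Itgb1bp2, called melusin, a beta1-binding protein of muscle, had 109 and 102 CPM in mutants and 133, 125 and 135 CPM in controls and fell by 0.32 ± 0.06 (SE) (adjusted p = 0.0229 by edgeR's test). Sorbs3, vinexin, fell by 0.32 ± 0.07 (SE) (adjusted p = 0.0385 by edgeR's test). The other 5 each lost the call without some libraries: Flnc without control 2 or 4, Nedd9 without any 1 of the controls, Pdlim7 without either mutant, control 2 or control 6, and Itgb1bp2 and Sorbs3 without mutant 7 or any 1 of the controls. Their highest adjusted p then ran from 0.0666 (Nedd9) to 0.141 (Flnc and Sorbs3).

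Of 43 ligand genes, 39 were tested, 5 rose and 4 fell, which is 23.1%, beside 6.58% of all tested genes (3.02% higher and 3.57% lower), with a median log2 fold change of 0.24. The matricellular gene Ctgf, a connective tissue growth factor bound by several integrins, had 193 and 210 CPM in mutants and 90.4, 88.5 and 109 CPM in controls. It rose by 1.07 ± 0.10 (SE) on the log2 scale (adjusted p = 0.00112 by edgeR's test). Of its exonic bases in GENCODE vM21, 23.2% are shared with Gm15270 on the opposite strand, which limits its value if reads were counted without strand. Mfge8, an RGD protein bound by alphav-beta3 and alphav-beta5, had 223 and 204 CPM in mutants and 153, 158 and 144 CPM in controls and rose by 0.50 ± 0.07 (SE) (adjusted p = 0.00578 by edgeR's test). Both kept their calls in every fit without 1 library. Thbs1, thrombospondin, rose by 0.99 ± 0.17 (SE), and Tgfb1, whose latent form alphav integrins bind, by 0.37 ± 0.09 (SE) (adjusted p = 0.0314 and 0.0484 by edgeR's test).

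Laminins, the ligands of alpha3, alpha6 and alpha7, changed in both directions, with Lama1 higher and Lamb3 and Lama5 lower. Lamb3, the beta chain of laminin-332, had 29.3 and 26.1 CPM in mutants and 63.8, 54.8 and 56.5 CPM in controls. Lamb3 fell by 1.07 ± 0.09 (SE), in log2 units (adjusted p = 8.03e-04 by edgeR's test), in every fit without 1 library. Lama5, a laminin alpha chain of basement membranes, fell by 0.38 ± 0.07 (SE) (adjusted p = 0.0159 by edgeR's test). Lama1, a chain best known from embryonic basement membranes, had 1.68 and 4.10 CPM in mutants and 0.984, 0.588 and 0.877 CPM in controls and rose by 1.82 ± 0.40 (SE) (adjusted p = 0.0406 by edgeR's test), with mutant 7 the higher. Its log2 fold change was 1.03 without mutant 7 and 2.32 without mutant 5.

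Laminin chains common in muscle and vessel walls did not pass: Lama2 had 63.4 and 87.0 CPM in mutants and 81.0, 97.8 and 85.8 CPM in controls, and Lamc1 had 399 and 594 CPM in mutants and 382, 457 and 448 CPM in controls. Of 8 collagen chains, Col3a1 alone passed (12.5%), beside 6.58% of all tested genes. It was lower, with a log2 fold change of -0.42 ± 0.09 (SE) (adjusted p = 0.0248 by edgeR's test). In 6 of the 8 the groups were apart, 2 above and 4 below, beside 37.9% of all tested genes. Col1a1 and Col1a2 lay below every control without passing (adjusted p = 0.0615 and 0.0513 by edgeR's test). Col4a1 and Col4a2 lay above every control, 1.66-fold and 1.69-fold higher, without passing (adjusted p = 0.0996 and 0.174). Of the ligand calls, Lama5 was lost without control 4, Thbs1 without mutant 7, control 4 or control 6, and Lama1, Col3a1 and Tgfb1 without mutant 7 or any 1 of the controls. Their highest adjusted p ran from 0.0710 (Lama5) to 0.169 (Tgfb1).

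**Figure D4:**
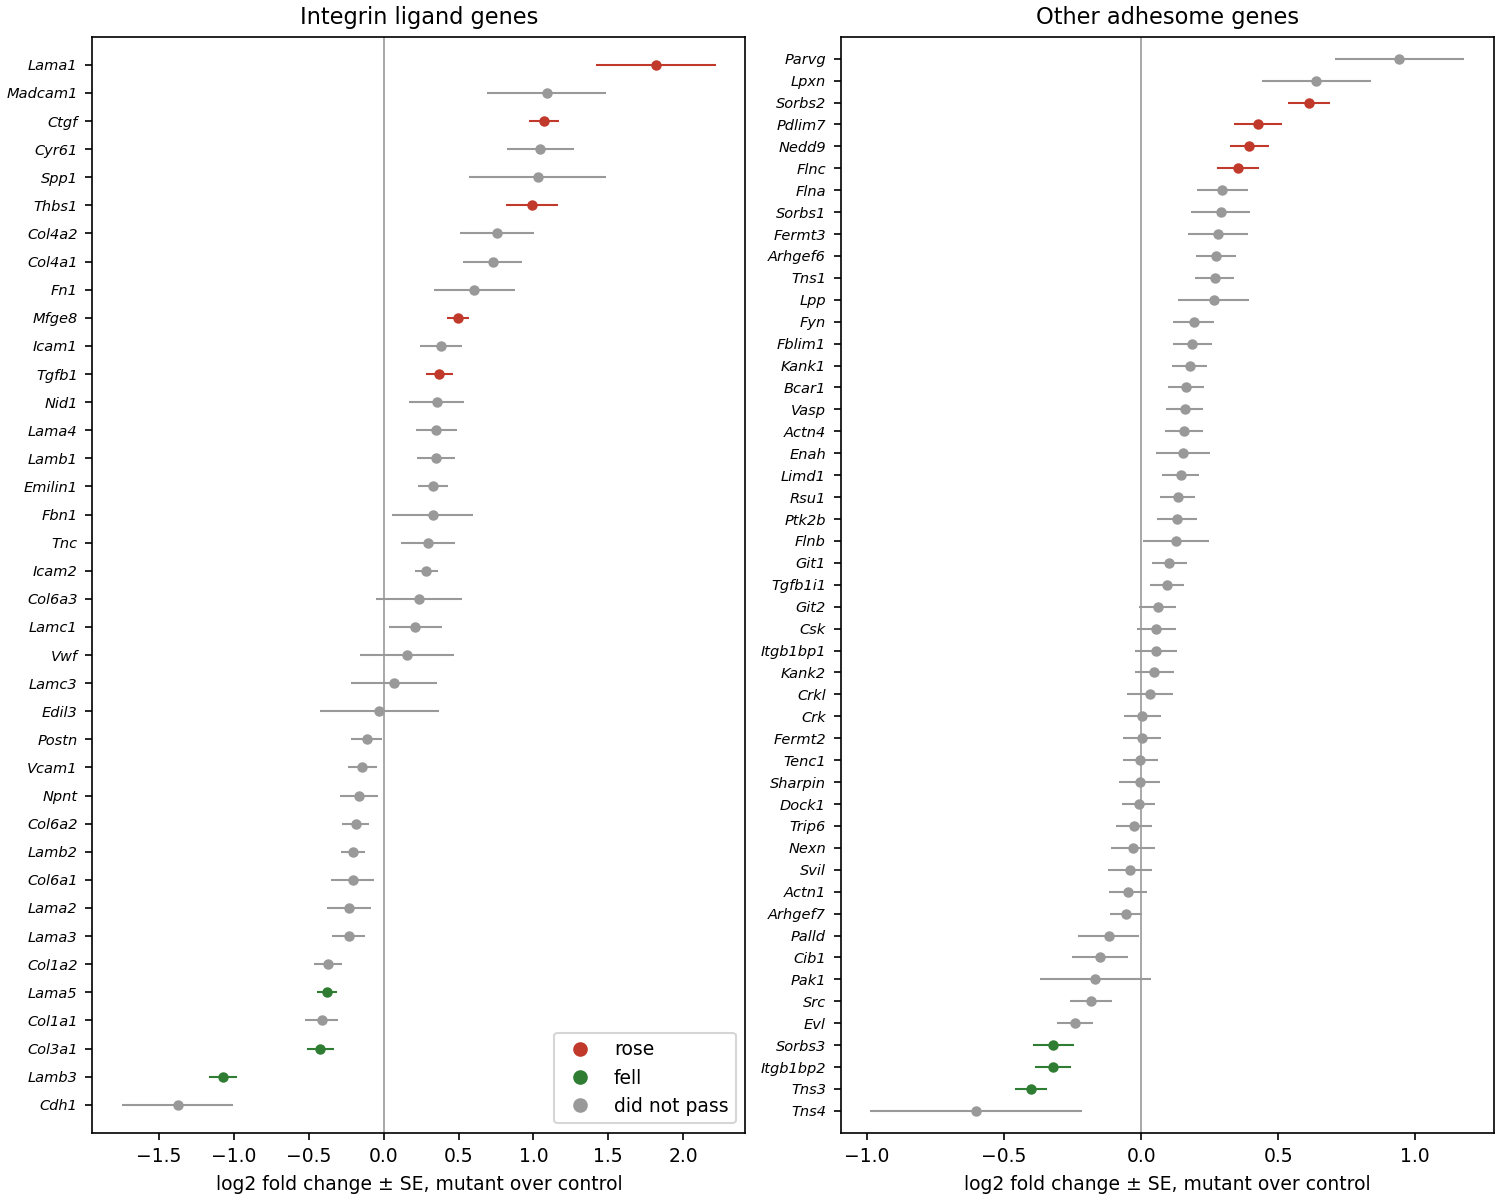
Log2 fold change (mutant over control) with its standard error for tested integrin ligand genes and tested adhesome genes outside the members, ordered by fold change; red points rose, green points fell and grey points did not pass. Among called ligands, Ctgf, Thbs1 and Lama1 lie far to the right and Lamb3 to the left, while the adhesome calls lie between -0.40 and 0.61. Some ligands that did not pass lie as far out, such as Cdh1 at -1.38 and Madcam1 at 1.09.

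The plot of both lists shows a wider spread among ligand genes than among adhesome genes. Summed levels of epicardial, of fibroblast, and of smooth muscle and pericyte markers were apart between the groups. The sums of the endothelial, leukocyte, erythroid and ventricular markers were apart as well. The 5 epicardial markers summed to 648 and 647 CPM in mutants and 1113, 1058 and 942 CPM in controls. Among them 4 fell (80.0%), beside 3.57% of all tested genes, by up to 0.79 on the log2 scale (Krt19 and Upk3b). Among the 7 fibroblast markers 3 fell (42.9%), beside 3.57% of all tested genes, and Col3a1 was 1 of them. Together the 7 summed to 6787 and 6993 CPM in mutants and 9725, 8648 and 8618 CPM in controls. Most of this sum came from Col1a1, Col3a1 and Postn, which are ligand genes themselves, so it is not independent of the ligand list. Of the other fibroblast markers, Dcn and Lum fell, by 0.80 and 0.92 on the log2 scale, and Pdgfra and Tcf21 did not pass. The 6 smooth muscle and pericyte markers summed to 2187 and 1818 CPM in mutants and 753.5, 877.5 and 702.3 CPM in controls, mostly through Acta2, which rose by 1.84 ± 0.14 (SE). None of these markers was at 0 in all libraries, and their part in the ligand changes was not tested.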

How the data were processed

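RNA from mouse atria was sequenced after polyA selection. RNA was extracted with Trizol and RNeasy columns, per the labels' protocols, and 250 ng of total RNA entered Illumina's TruSeq preparation. Deposited values are the authors' raw counts for every gene in each library, RPKM pooled to 1 value per group, log2 ratios of mutant over control and p-values with adjusted p-values. Per the submitters' processing notes HTSeq 0.5.4p3, DESeq and TopHat2 2.0.4 were used with mm9, without stated roles. Strand use in counting: not given in the sources used here. The table holds 40624 genes and 5 summary entries, which were left out. Of these, reads in no feature were 3.97% and 5.75% of the total in mutants 5 and 7, against 4.26%, 4.70% and 6.03% in controls 2, 4 and 6. Ambiguous reads were 2.45% and 2.31% in the mutants, against 3.09%, 3.18% and 2.87% in the controls, so their share was lower in both mutants than in every control, which bears on genes with overlapping exons.

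Counts were tested with edgeR 4.0.16 in R 4.3.3 (filterByExpr with minimum count 10 and minimum total 15, TMM, robust quasi-likelihood fit, two-sided, Benjamini-Hochberg adjustment over all 17835 tested genes, threshold 0.05). CPM are scaled by TMM. CPM per kilobase use the authors' listed length. Standard errors are the fold change over the square root of F. The script was checked on simulated counts. Alternatives were other size factors, other filters, DESeq2 1.42.0, limma-voom (limma 3.58.1), a threshold of 0.01, sex, and leaving out each library.

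Per-library values are given for members with unadjusted p under 0.05, the leading members of each role, and all of the talin, vinculin and ILK groups. The ligand counts include 1 gene that is not reported here by name. Members and lists were chosen with earlier results of these data known. Of the list names, Ajuba was not matched to a gene of the table, Hic5 is another name of Tgfb1i1, which is counted once, and Tns2 was found as Tenc1. Exon sharing was read from GENCODE vM21, matched by gene identifier.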

Additional observations from a re-analysis of the deposited data

How the results depend on the processing

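The count of members called, 5 (4 higher, 1 lower) as reported, stayed at 5 with DESeq2's size factors, library totals alone, limma-voom or a filter of 1 CPM in 2 libraries, and was 7 with sex as a covariate, which added Itgal and Itgb2. It was 8 with no filter, which added Itgb2, Itgb5 and Zyx, 10 with DESeq2, which added Itgal and Itgax to those (all genes 1947, adhesome 12, ligands 16) and 1 at adjusted p under 0.01 (all genes 391, adhesome 2, ligands 3). Leaving out 1 library gave 1 to 12 members, 529 to 1714 of all genes, 2 to 11 adhesome genes and 4 to 20 ligand genes; members were fewest without control 4 and most without mutant 5. All genes without a filter gave 1554 calls, and library totals alone gave 449 higher and 799 lower, against 538 and 636 as reported. The median log2 fold change of the members ran from 0.08 without mutant 7 to 0.26 without control 2. With a mutant left out, the lone one is assumed to vary like the controls, so adjusted p and calls from those fits rest on the controls' spread. The mutants differed more from each other than the controls did. Chi-square per degree of freedom was 85.1 between the mutants, and 19.9, 25.1 and 33.3 between pairs of controls. Members without a call turned in sign when 1 library was left out: Itga1 ran from -0.0183 to 0.76, Itga11 from -0.16 to 0.61, Itga2 from -0.64 to 0.42, Itga4 from -0.21 to 1.02, Itga5 from -0.0484 to 0.21, Itga9 from -0.31 to 0.036, Itgae from -0.0579 to 0.61, Itgam from -0.0608 to 1.35, Itgb4 from -0.49 to 0.14, Lims2 from -0.0551 to 0.18 and Vcl from -0.0443 to 0.25. The cause was not tested. No paired analysis was possible because the groups share no replicate number. Subunits with few reads, such as Itgb6, Itgae and Itgad, are limited by depth.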

Other observations

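Itgb1bp3, left out of the members by name and named here after its values were seen, had 22.1 and 40.1 CPM in mutants 5 and 7 and 18.1, 17.2 and 13.8 CPM in controls 2, 4 and 6. Both mutants lay above every control, with a log2 fold change of 0.93 ± 0.28 (SE) that did not pass (adjusted p = 0.155 by edgeR's quasi-likelihood test). Itgb3bp, also left out by name, had 13.1 and 13.2 CPM in mutants and 14.0, 14.6 and 13.5 CPM in controls (log2 fold change -0.09 ± 0.09 SE). Cyr61, a matricellular ligand beside Ctgf in the ligand list, had 84.4 and 119 CPM in mutants and 39.8, 48.1 and 59.6 CPM in controls. Its log2 fold change of 1.05 ± 0.23 (SE) did not pass (adjusted p = 0.0710 by edgeR's test). Fn1, fibronectin, had 1504 and 2644 CPM in mutants and 1163, 1549 and 1380 CPM in controls, with mutant 7 alone above the controls.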
